A study of Mus musculus with 8 samples.

Results

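Oxidative phosphorylation genes were taken as the protein-coding genes named Nduf (complex I), Sdha to Sdhd (complex II), Uqcr (complex III), Cox4 to Cox8 (complex IV) and Atp5 (complex V, the ATP synthase), together with Cycs (cytochrome c) and the mitochondrial-encoded mt-Nd, mt-Co, mt-Cytb and mt-Atp genes. They came to 107 of the 51826 genes in the tables, 13 encoded by mitochondrial DNA and 94 by the nucleus. The names also take in 8 Ndufaf assembly factors and 2 Atp5 genes that are not structural subunits, and they leave out Cyc1 of complex III. Despite their names, Ndufa4 and Ndufa4l2 were counted in complex IV. The cells were from mouse fetal hypothalamus at embryonic day 14.5, strain C57BL/6. All animals carried Ai9, a reporter that makes red fluorescent protein (RFP) once Cre has acted, as 1 allele, and RFP-positive, propidium iodide-negative cells were sorted. Ptf1a-cre Homo animals were Ptf1a cre/cre; Ai9/+, called knockouts in the labels, and gave libraries 9 to 12. Ptf1a-cre Het animals were Ptf1a cre/+; Ai9/+, the controls, and gave libraries 1 to 4. Cre is driven from the Ptf1a locus in both genotypes, so the sort holds cells that expressed it and their descendants, and the controls have lost 1 Ptf1a copy as well. Nothing in the labels says that each library was a separate embryo, so p-values measure the spread between these libraries.

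The respiratory chain passes electrons from NADH (complex I) and succinate (complex II) through complex III and cytochrome c to oxygen at complex IV, and complex V uses the proton gradient so made to form ATP. Most subunits are nuclear genes whose proteins are imported into mitochondria, while a few hydrophobic core subunits are made inside from mitochondrial DNA. The mitochondrial genes are transcribed as long precursors from both strands, nearly all from one of them, and are then cut into separate messages, so that both genomes have to supply parts of complexes I, III, IV and V.

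Exon reads per library were 2571054 to 3009181 in Homo and 2502387 to 2979647 in Het libraries. Summed levels of 6 hypothalamic markers were 852 to 1179 counts per 1000000 exon reads (CPM) in Homo and 696 to 893 CPM in Het libraries, and 6 neuronal markers summed to 4102 to 5187 CPM in Homo and 4034 to 4653 CPM in Het libraries. Single markers went opposite ways within these sums. Of the 5 hypothalamic markers tested 1 was called higher in Homo and 2 lower, and of the 6 neuronal markers 3 were called higher and 1 lower. Isl1 stood at 449 to 606 CPM in Homo and 183 to 274 CPM in Het libraries, and Nkx2-1 at 130 to 203 CPM in Homo and 258 to 329 CPM in Het libraries. Markers of erythroid, myeloid, endothelial, mesenchymal, oligodendrocyte, astrocyte, pituitary and muscle cells overlapped between genotypes, the largest sums being 170 CPM (endothelial and mesenchymal) in Homo and 125 CPM (endothelial) in Het libraries. These highest sums were in Homo library 12 and Het library 3, the libraries with the highest mitochondrial share of their genotype, and erythroid markers were also highest there (84.8 CPM in Homo library 12 and 104 CPM in Het library 3). Mesenchymal markers summed to 6.31 to 170 CPM in Homo and 2.67 to 14.6 CPM in Het libraries. Progenitor markers (Sox2, Nes, Vim and Hes5) were more abundant, and their sums overlapped between genotypes. They too were highest in Homo library 12 (912 CPM, others 648 to 687) and Het library 3 (721 CPM, others 532 to 587). The part of these cells in the results was not tested. Some measures of the libraries moved with genotype or set a library apart. Each gene's log2 level, less its mean over all 8 libraries, was set against transcript GC content in each library, mitochondrial genes left out. The slopes set libraries against each other, so positive and negative ones had to occur together. They were -0.34 to -0.20 log2 units per 10 points of GC in Homo libraries and 0.05 to 0.46 in Het libraries. Het libraries 1 and 2 (0.44 and 0.46) lay apart from 3 and 4 (0.05 and 0.09). Library 12 of Homo had the highest share of mitochondrial messages, and library 9 the lowest intron share of gene reads (59.6%, against 67.7% to 69.2% in the other 3 Homo libraries). Genes with an exon read numbered 17658, 24852, 23803 and 23088 in Homo libraries 9, 10, 11 and 12. In Het libraries 1, 2, 3 and 4 they numbered 14617, 17402, 20077 and 22886, fewest in libraries 1 and 2. The part of this measure in the results was not tested. Calls lost without a library are given beside most results they change. Values after a per-library GC correction, which removed most calls, are given together further below. Since the GC slopes did not overlap between genotypes, that correction also takes out any genotype difference that follows GC. Such a difference and a GC bias of the libraries cannot be told apart here.

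Mitochondrial-encoded messages took a larger share of the exon reads in Homo cells. Their 13 genes made up 1.82%, 1.92%, 1.99% and 2.75% of exon reads in Homo libraries 9, 10, 11 and 12, against 0.849%, 0.968%, 1.33% and 1.10% in Het libraries 1, 2, 3 and 4. Every Homo library was above every Het library, by 1.06 percentage points between the means (2.12% ± 0.427 in Homo and 1.06% ± 0.207 in Het, SD, n = 4 each). The 94 nuclear-encoded genes took 0.608%, 0.557%, 0.534% and 0.532% in Homo libraries and 0.689%, 0.757%, 0.616% and 0.621% in Het libraries. Again the genotypes did not overlap, here with Homo lower, though Homo library 9 and Het library 3 were close. Mitochondrial reads per nuclear-encoded read were 3.0, 3.45, 3.73 and 5.17 in Homo and 1.23, 1.28, 2.16 and 1.78 in Het libraries. Since these are sums over genes picked by name, no p is given for them. After scaling by library composition (trimmed mean of M values, TMM), the mitochondrial sum was 22025 ± 4318 CPM in Homo and 10499 ± 1766 CPM in Het, a 2.10-fold difference, while the nuclear sums of 5797 ± 435 CPM in Homo and 6660 ± 779 CPM in Het overlapped. In bulk RNA of sorted cells, a change in the number of cells of a type and a change in RNA per cell cannot be told apart.

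**Figure D1:**
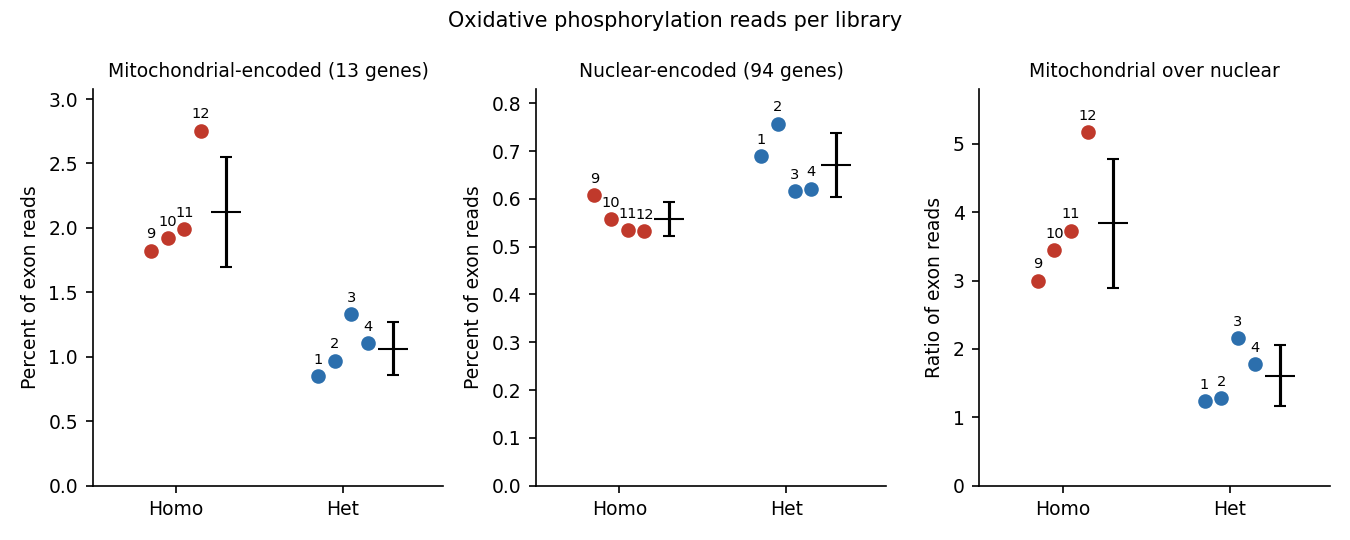
Percent of exon reads from the 13 mitochondrial-encoded genes, percent from the 94 nuclear-encoded genes, and the ratio of the first to the second, each point being 1 library with its number and the bars the mean and SD of 4 libraries. The Homo libraries lie above the Het libraries in mitochondrial share (1.82% to 2.75% and 0.849% to 1.33%) and below them in nuclear share (0.532% to 0.608% and 0.616% to 0.757%).

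The ribosomal RNAs of the mitochondrion, which come from the same genome, also took a larger share of reads in Homo. They held 5.15%, 4.62%, 4.59% and 5.81% of all gene reads in Homo and 2.60%, 2.85%, 2.78% and 4.06% in Het libraries. Messages per 100 mitochondrial rRNA reads were 14.6, 13.8, 14.2 and 14.98 in Homo and 12.2, 12.6, 14.3 and 8.37 in Het libraries, so this ratio overlapped between genotypes. With whole-gene reads neither rRNA gene passed in edgeR (mt-Rnr1, log2 0.25, adjusted p = 0.623, and mt-Rnr2, 0.24, adjusted p = 0.642). Het library 4 stood out with much rRNA and few messages per rRNA read.

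Gene by gene, 11 of the 13 mitochondrial-encoded genes were called higher in Homo, 0 lower, and 2 did not pass, with a median log2 fold change of 1.19. A call is an adjusted p under 0.05 in edgeR's quasi-likelihood test over all 12257 genes tested, of which 13.1% were called in either direction (6.96% higher and 6.12% lower), with a median of 0.045. By complex, the calls were 6 of 7 in complex I, 1 of 1 in complex III, 2 of 3 in complex IV and 2 of 2 in complex V. In 9 of the 13 genes every Homo library was above every Het library, as in 10.3% of all genes tested. After the GC correction given below only mt-Atp6, mt-Nd6 and mt-Cytb stayed called, where 1.09% of all genes were called higher.

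In complex I, whose mitochondrial-encoded subunits form the proton-pumping membrane arm, mt-Nd6 differed by the largest log2 fold change. This gene (ENSMUSG00000064368, mitochondrial genome 13552 to 14070) is the one mitochondrial-encoded member on the minus strand. It had 514, 520, 382 and 587 CPM in Homo libraries 9, 10, 11 and 12, against 129, 139, 227 and 177 CPM in Het libraries 1, 2, 3 and 4, a log2 fold change of 1.57 ± 0.18 (SE; edgeR adjusted p = 0.000527). The lowest Homo library was well above the highest Het library. Whether reads were counted by strand is not given in the sources used here, so reads antisense to mt-Nd6 from the other strand cannot be told apart from its own. On the plus strand, mt-Nd4 (10167 to 11544) had 1364, 1315, 1212 and 1602 CPM in Homo and 408, 511, 764 and 596 CPM in Het libraries, a log2 fold change of 1.27 ± 0.17 (adjusted p = 0.0011). The fold was close to this in mt-Nd1 (1.19 ± 0.19, adjusted p = 0.00218), mt-Nd2 (1.26 ± 0.15, adjusted p = 0.000617) and mt-Nd5 (1.12 ± 0.20, adjusted p = 0.00367). These genes showed no overlap between genotypes. Per length, complex I messages averaged 2252 ± 316 (mt-Nd5) to 5719 ± 1787 (mt-Nd1) transcripts per 1000000 (TPM) in Homo, leaving out mt-Nd3 and mt-Nd4l.

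Those short genes, mt-Nd3 and mt-Nd4l, differed less. Levels of mt-Nd3 (9459 to 9806) were 138, 173, 158 and 188 CPM in Homo and 143, 125, 156 and 137 CPM in Het libraries. These ranges overlapped, and the log2 fold change of 0.23 ± 0.13 did not pass (edgeR adjusted p = 0.262). Levels of mt-Nd4l (9877 to 10173) were 216, 243, 194 and 250 CPM in Homo and 124, 120, 198 and 129 CPM in Het libraries, where library 3 reached into the Homo range (log2 0.66 ± 0.16, adjusted p = 0.0179). Its call was lost without library 1, 2, 10 or 12.

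In complex III, mt-Cytb, the haem-carrying cytochrome b (14145 to 15288), had 1927, 2039, 2383 and 3577 CPM in Homo and 828, 877, 1372 and 1059 CPM in Het libraries. The genotypes did not overlap, and the log2 fold change was 1.26 ± 0.20 (edgeR adjusted p = 0.0022). In complex IV, mt-Co1, the catalytic subunit with the oxygen-binding site (5328 to 6872), had the highest CPM of all members. Its levels were 5840, 6154, 6282 and 8435 CPM in Homo and 2951, 3341, 4214 and 3344 CPM in Het libraries (log2 0.95 ± 0.14, adjusted p = 0.00166). The copper-binding subunit mt-Co2 (7013 to 7696) stood at 1234 ± 361 CPM in Homo and 518 ± 63.1 CPM in Het (log2 1.25 ± 0.18, adjusted p = 0.00151). For both of these subunits the genotypes were apart. The third core subunit, mt-Co3 (8607 to 9390), had 1443, 1486, 1391 and 2037 CPM in Homo and 1228, 1336, 1391 and 1209 CPM in Het libraries. Homo library 11 lay level with Het library 3 while the other Homo libraries were above all Het ones, and the log2 fold change of 0.30 ± 0.14 did not pass (adjusted p = 0.157).

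In complex V, mt-Atp6, the subunit of the proton channel (7927 to 8607), had 3331, 3235, 3212 and 4531 CPM in Homo and 999, 1124, 1531 and 1554 CPM in Het libraries. The lowest Homo library held more than the highest Het library, and the log2 fold change was 1.46 ± 0.17 (edgeR adjusted p = 0.000527). Per length it was the highest of all members in Homo, at 17718 ± 3222 TPM, against 7078 ± 1749 TPM in Het. The other gene, mt-Atp8 (7766 to 7969), had 173, 243, 333 and 422 CPM in Homo and 93.0, 127, 183 and 215 CPM in Het libraries. These ranges overlapped (log2 0.92 ± 0.27, adjusted p = 0.0377), and the call was lost without library 1, 2, 10, 11 or 12. The genes mt-Atp8 and mt-Atp6 share 43 bases, in which a read can belong to either. The shared bases are in capitals here, on the plus strand of GRCm38 chrM:7917-7979, to show how far the neighbours run into each other.
mt-Atp8 and mt-Atp6: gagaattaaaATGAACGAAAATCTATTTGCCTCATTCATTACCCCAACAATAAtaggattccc

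Along the mitochondrial genome the small differences lay next to each other. From mt-Atp6 through mt-Co3, mt-Nd3 and mt-Nd4l to mt-Nd4, neighbours in that order, the log2 fold changes were 1.46, 0.30, 0.23, 0.66 and 1.27. The differences between these genes were not tested.

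**Figure D2:**
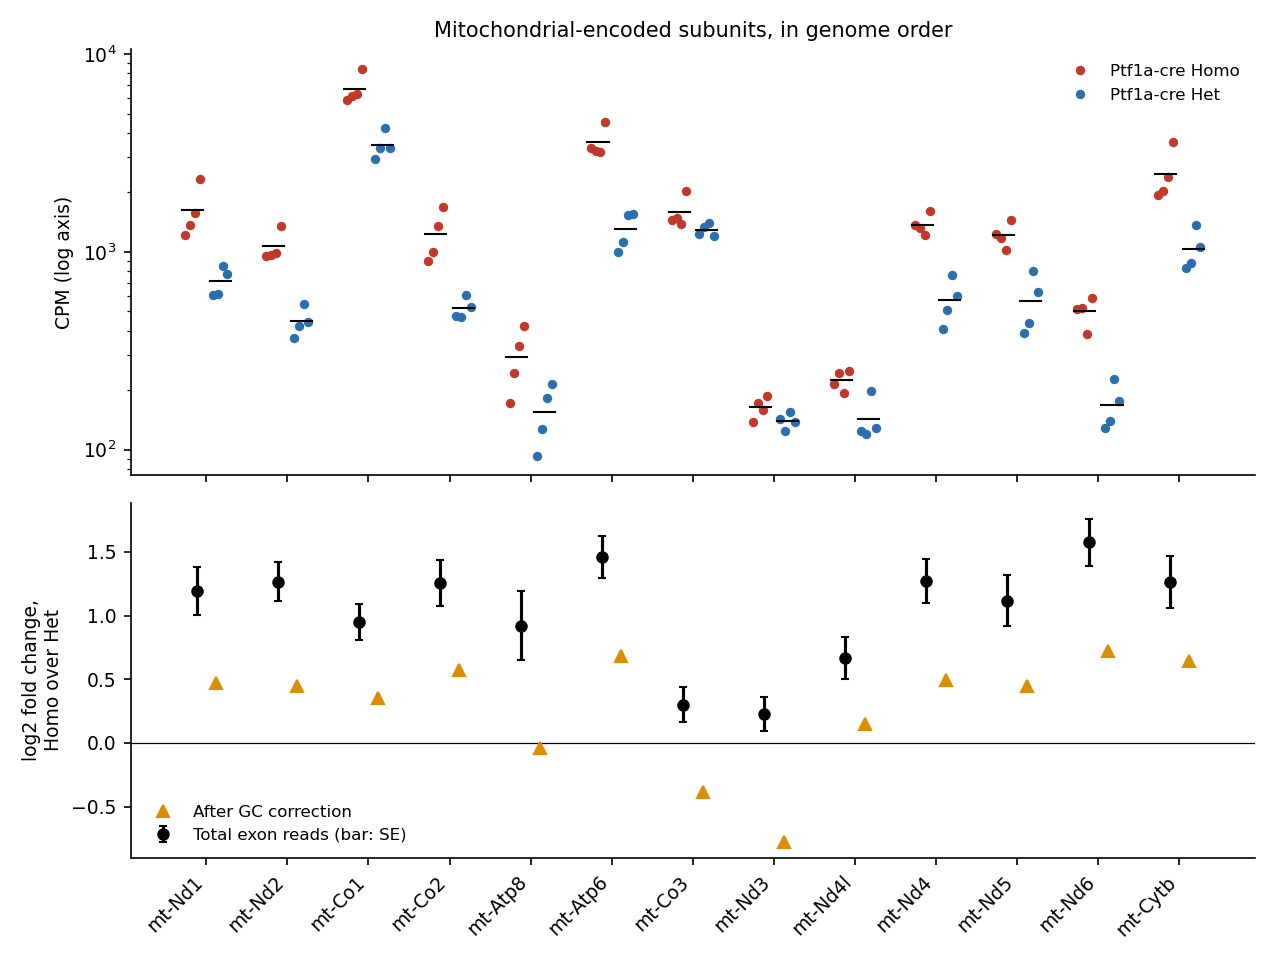
Upper panel: level of each mitochondrial-encoded gene in CPM on a log axis, 1 point per library, with Homo left of Het and a line at the mean of 4 libraries. Lower panel: log2 fold change of Homo over Het with its SE (black) and after the GC correction (triangles). Before the correction all 13 values are above 0, lowest in mt-Co3 and mt-Nd3 (0.30 and 0.23). After it mt-Atp8, mt-Co3 and mt-Nd3 are below 0 (-0.04, -0.38 and -0.78).

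Several mitochondrial genes have near-identical nuclear copies, and reads of 36 bases from each end can match both. The 9 annotated copies found here, unprocessed pseudogenes on chromosomes 1 and 2, match mt-Atp6, mt-Co1, mt-Co2, mt-Co3, mt-Nd3, mt-Nd4l and mt-Nd4. Those of mt-Nd4 through mt-Co1 on chromosome 1 lie together within 24611535 to 24616197 on the minus strand. One of them, Gm28438, matches mt-Nd3 over 345 bases with 1 mismatch. Its first 120 bases are shown beside those of mt-Nd3, with the mismatch in capitals, to let the likeness be seen. The mt-Nd3 stretch is chrM:9459-9578 on the plus strand and the Gm28438 stretch is chr1:24613000-24613119 on the minus strand, both GRCm38 and printed 5′ to 3′.
mt-Nd3: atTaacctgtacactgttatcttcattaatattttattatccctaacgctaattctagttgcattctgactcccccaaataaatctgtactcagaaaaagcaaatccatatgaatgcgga
Gm28438: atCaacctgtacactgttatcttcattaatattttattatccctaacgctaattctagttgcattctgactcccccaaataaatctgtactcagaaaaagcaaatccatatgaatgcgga

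The copy of mt-Co3, Gm28437, matched it over 783 bases with 0 mismatches. Of the 36-base windows in the transcripts, 98.1% in mt-Nd3, 98.9% in mt-Nd4l, 99.5% in mt-Atp6, 99.9% in mt-Co3 and 100% in mt-Co2 also occurred in another annotated transcript, against 62.6% in mt-Nd4, 59.7% in mt-Co1, 13.97% in mt-Nd5, 11.1% in mt-Nd2, 4.73% in mt-Atp8, 3.07% in mt-Cytb, 2.69% in mt-Nd6 and 0% in mt-Nd1. The share of exon reads that the authors' tables count as unique was low in the genes with such windows throughout, at 6.23% in mt-Nd3, 1.77% in mt-Atp6, 0.81% in mt-Nd4l, 0.48% in mt-Co2 and 0.43% in mt-Co3. It was 54.7% in mt-Nd4 and 48.1% in mt-Co1, and 95.8% to 100% in the other 6 genes. The 9 copies together held 12 gene reads over all 8 libraries. How the authors assigned reads that match several places is not given in the sources used here.

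**Figure D3:**
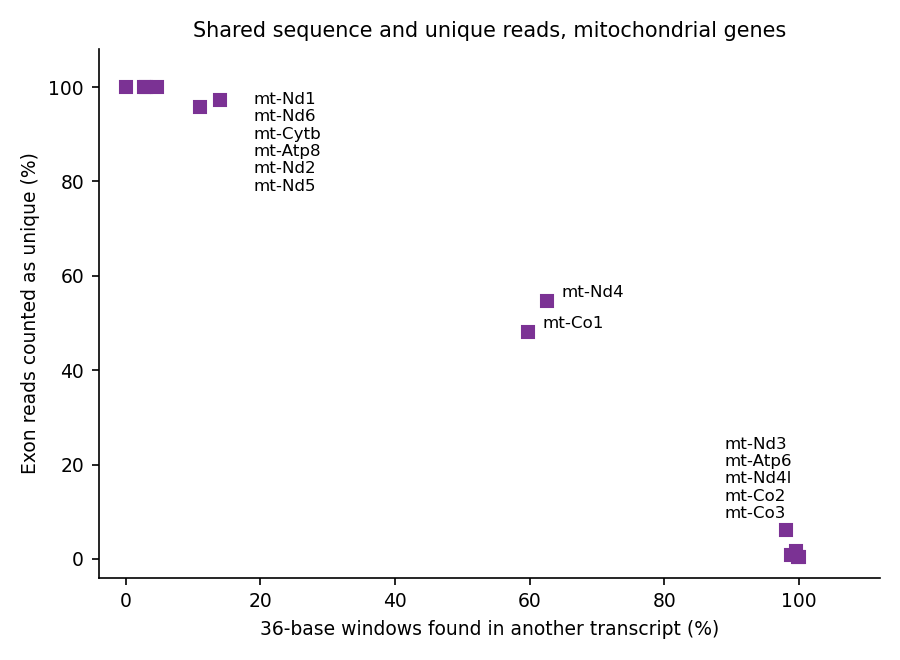
For each mitochondrial-encoded gene, the percent of its 36-base windows that occur in another annotated transcript (x axis) against the percent of its exon reads counted as unique over all 8 libraries (y axis). The genes fall from mt-Nd1 (0% of windows, 100% unique) through mt-Co1 and mt-Nd4 to mt-Co2 and mt-Co3 (0.48% and 0.43% unique).

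With unique exon reads, 9 of 12 mitochondrial-encoded genes tested were called higher and 0 lower, where 14.2% of all genes were called (6.7% higher and 7.52% lower). The calls included mt-Nd1 (log2 1.17, edgeR adjusted p = 0.00178), mt-Nd6 (1.55, adjusted p = 0.000376) and mt-Cytb (1.24, adjusted p = 0.00178), nearly all of whose reads are unique. Among the genes with few unique reads, mt-Co2 (log2 0.95, adjusted p = 0.293), mt-Co3 (-0.27, adjusted p = 0.773) and mt-Nd3 (0.73, adjusted p = 0.215) did not pass and mt-Nd4l was not tested. In contrast mt-Atp6, with 1.77% of its reads unique, was called with a larger log2 fold change than from total reads (2.70, adjusted p = 0.000183, against 1.46).

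Most nuclear-encoded genes did not pass, and most of those called were lower in Homo. Of 94 members, 84 passed the low-count filter, and of these 2 were called higher, 11 lower and 71 did not pass. Over all genes 6.96% were called higher and 6.12% lower, 13.1% in either direction. In value 67 of the 84 were lower in Homo, against 46.6% of all genes tested, and the median log2 fold change of the 84 was -0.23. The 5418 tested genes at or over the median transcript GC of nuclear-encoded members had a median of -0.27. Of those genes 12.9% were called lower and 0.683% higher. The genotypes did not overlap in 3 members higher and 16 lower, against 10.3% and 9.34% of all genes.

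Complex IV had all 12 tested nuclear-encoded members lower in value (median log2 -0.45), 4 of them called. Its 20 members summed to 839, 729, 697 and 745 CPM in Homo libraries 9, 10, 11 and 12, against 1064, 1103, 878 and 889 CPM in Het libraries 1, 2, 3 and 4. The highest Homo sum was below the lowest Het sum, which was so for none of the other complexes' nuclear-encoded sums. The 12, with Ndufa4 and Cox7a2l among them, were all classed here as accessory to the mitochondrial-encoded core. Cox6a1 (ENSMUSG00000041697, chromosome 5, 115345642 to 115348981), a subunit of the complex's dimer contact, had 39.6, 46.4, 24.6 and 27.9 CPM in Homo and 78.1, 77.2, 55.9 and 65.7 CPM in Het libraries. No Homo library reached a Het one (log2 -1.0 ± 0.21, edgeR adjusted p = 0.00817), and the call held in each fit without 1 library. It was lost after the GC correction (log2 -0.51, adjusted p = 0.185). Cox8a, a small membrane subunit, had 46.3, 25.8, 31.2 and 34.5 CPM in Homo and 60.5, 66.5, 54.7 and 55.7 CPM in Het libraries (log2 -0.78 ± 0.19, adjusted p = 0.0169). Cox7a2 had 41.4, 31.5, 29.0 and 25.5 CPM in Homo and 62.4, 65.8, 43.9 and 47.0 CPM in Het libraries (log2 -0.78 ± 0.20, adjusted p = 0.0229). Cox4i1, the largest nuclear subunit, had 120, 119, 121 and 111 CPM in Homo and 174, 179, 153 and 147 CPM in Het libraries (log2 -0.47 ± 0.12, adjusted p = 0.0199). In these 3 as well, all Homo libraries lay below all Het libraries. Their calls were lost without library 2, 10 or 11, and those of Cox7a2 and Cox4i1 also without 1 or 12.

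Complex V had 4 of 16 tested nuclear-encoded members called lower and 1 higher (median log2 -0.29). The F1 subunit Atp5e (chromosome 2, 174461072 to 174464105) had 20.3, 21.4, 17.6 and 24.7 CPM in Homo and 41.1, 36.8, 43.5 and 30.1 CPM in Het libraries. Its genotypes were apart (log2 -0.85 ± 0.21, edgeR adjusted p = 0.0164), and the call was lost without library 11. Lower too were Atp5d, also of F1 (log2 -0.74 ± 0.23, adjusted p = 0.0462), and Atp5o, of the peripheral stalk (-0.43 ± 0.13, adjusted p = 0.0497), both lost without library 1, 2, 4, 10, 11 or 12. Atp5g3, one of 3 genes for the same mature ring subunit c, had 56.1, 40.8, 44.7 and 30.6 CPM in Homo and 75.8, 85.9, 59.0 and 62.3 CPM in Het libraries. Its genotypes were apart (log2 -0.71 ± 0.20, adjusted p = 0.0291), and the call was lost without library 1, 2, 10, 11 or 12. The others, Atp5g1 (log2 -0.21, adjusted p = 0.633) and Atp5g2 (-0.78, adjusted p = 0.0695), did not pass, and Atp5g2 had 10.3% unique reads. With unique exon reads both were higher in value and did not pass (Atp5g1, log2 0.36, adjusted p = 0.50, and Atp5g2, 0.63, adjusted p = 0.581). Atp5f1, subunit b of the peripheral stalk, was the member called higher, with 340, 248, 246 and 263 CPM in Homo and 206, 221, 149 and 199 CPM in Het libraries. All Homo libraries were above all Het libraries (log2 0.50 ± 0.15, adjusted p = 0.0401), but the call was lost without any 1 of the 8 libraries, and 62.5% of its reads were unique. With unique exon reads it did not pass (log2 0.37, adjusted p = 0.114). The highest level per length among them was that of Atp5a1, the F1 alpha subunit, at 547 ± 39.9 TPM in Homo and 699.5 ± 71.9 TPM in Het. Its difference in CPM did not pass (log2 -0.23, adjusted p = 0.237).

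Complex I, with the most nuclear-encoded members, had 2 of 43 called lower and 0 higher (median log2 -0.19). Ndufv1, the flavoprotein subunit that takes electrons from NADH (chromosome 19, 4007497 to 4012806), had 48.1, 35.1, 41.1 and 46.3 CPM in Homo and 70.2, 87.9, 64.0 and 66.8 CPM in Het libraries. The ranges did not meet (log2 -0.76 ± 0.17, edgeR adjusted p = 0.0105), and each fit without 1 library kept the call. The GC correction did not keep it (log2 -0.44, adjusted p = 0.17). Ndufa3, an accessory subunit, was at 15.2 ± 2.76 CPM in Homo and 28.4 ± 7.02 CPM in Het (log2 -0.90 ± 0.26, adjusted p = 0.034), a call lost without library 2, 4, 9, 10, 11 or 12. The member of this complex with the highest level per length, Ndufb9, stood at 400 ± 40.5 TPM in Homo and 525 ± 77.0 TPM in Het, and its CPM did not pass (log2 -0.27, adjusted p = 0.254). Of the 7 catalytic core subunits 6 were lower in value with 1 called, of the 29 accessory subunits 22 with 1 called, and of the 7 assembly factors 5 with 0 called.

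Complex II had 1 of 4 members called lower, and complex III had 1 of 8 nuclear-encoded members called higher (median log2 -0.21 and -0.14). In complex II, which has no mitochondrial-encoded part, Sdhb, the iron-sulphur subunit, had 94.02, 78.3, 88.0 and 87.1 CPM in Homo and 123, 124, 106 and 116 CPM in Het libraries (log2 -0.43 ± 0.12, edgeR adjusted p = 0.0345). That call was lost without library 1, 2, 4, 10, 11 or 12, and the other 3 subunits did not pass. In complex III, Uqcrb, an accessory subunit, had 101, 73.5, 79.9 and 78.5 CPM in Homo and 56.4, 61.8, 47.4 and 60.2 CPM in Het libraries. It was called higher (log2 0.56 ± 0.15, adjusted p = 0.0287), lost its call without library 1, 2, 3, 9, 11 or 12, and had 38.3% unique reads. With unique exon reads it did not pass (adjusted p = 0.126). Uqcrh, the nuclear-encoded complex III member of highest mean level per length over both genotypes, stood at 280 ± 35.6 TPM in Homo and 283 ± 37.8 TPM in Het. Cycs, the carrier between complexes III and IV, stood at 43.9 ± 5.64 CPM in Homo and 42.9 ± 8.67 CPM in Het (log2 0.04, adjusted p = 0.923).

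**Figure D4:**
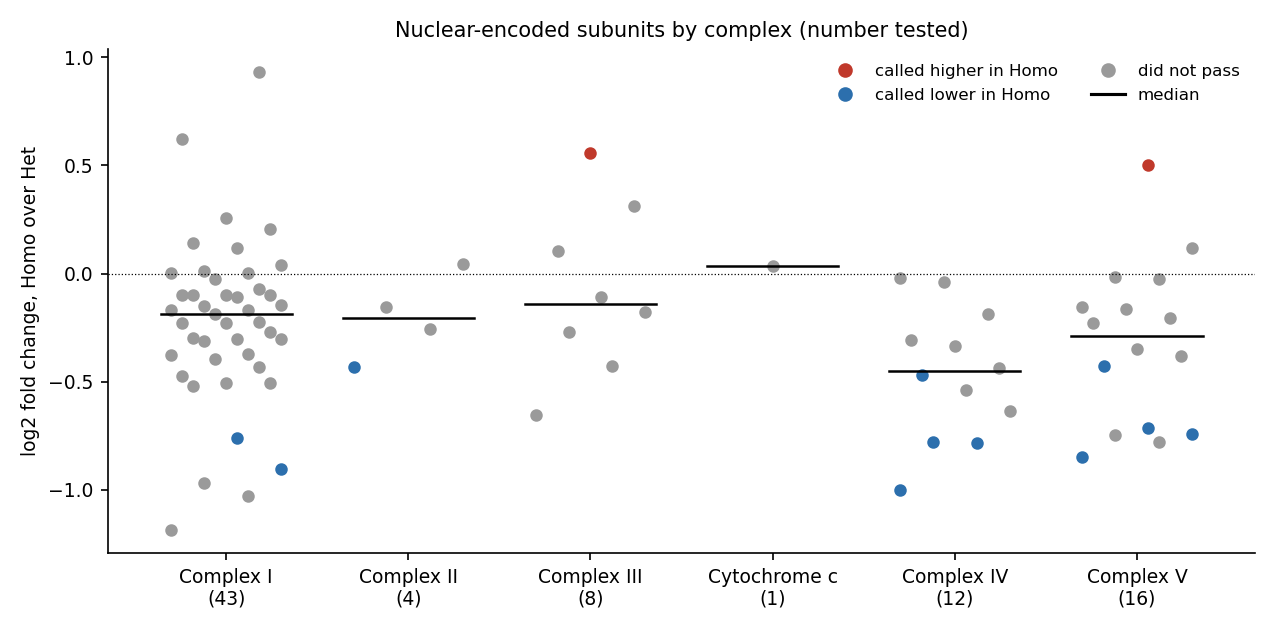
Log2 fold change of Homo over Het for each of the 84 nuclear-encoded members tested, 1 point per gene, by complex, with a line at the complex's median. Points called higher, called lower and not passing are coloured; complex IV has all 12 points below 0 and a median of -0.45.

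Isoforms of other tissues were barely sampled. The 10 members under the filter were Cox4i2, Cox6a2, Cox6b2, Cox7a1, Cox7b2, Cox8b, Cox8c, Ndufa4l2, Ndufaf6 and Atp5s. Over 4 libraries of each genotype, Cox6a2 had 1 read in Homo and 2 in Het, Cox7a1 had 2 in Homo and 1 in Het, and Cox8c had 1 in Homo and 0 in Het. These are isoforms of muscle (Cox6a2, Cox7a1) and testis (Cox8c) in mammals. Cox8b and Cox7b2 had 0 reads in both, which allows up to 0.272 CPM in Homo and 0.271 CPM in Het. Cox4i2 had 2 reads in Homo and 8 in Het, Cox6b2 had 11 in Homo and 22 in Het, and Ndufa4l2 had 6 in Homo and 12 in Het. The assembly factor Ndufaf6 had 33 in Homo and 63 in Het, and Atp5s had 31 in Homo and 34 in Het. No fold is given for these low counts. The widely expressed partners were all sampled. Cox6b1 had the highest mean level per length over both genotypes among complex IV's nuclear-encoded members, at 273 ± 31.5 TPM in Homo and 376 ± 55.5 TPM in Het. Its CPM (log2 -0.33, edgeR adjusted p = 0.202), that of Cox7b (-0.02, adjusted p = 0.957) and that of Cox7a2l (-0.04, adjusted p = 0.911) did not pass.

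Differences across all genes and across nuclear-encoded members followed transcript GC content. The mitochondrial-encoded messages hold 31.9% to 41.1% GC and the 94 nuclear-encoded ones a median of 50.9%. Across the 84 tested nuclear-encoded members, which share all 8 libraries, log2 fold change and GC had Pearson's r = -0.54 and Spearman's rho = -0.48, and across the 12238 tested genes with a GC value r = -0.53. Among the 13 mitochondrial-encoded genes alone, all low in GC, r was -0.08 and rho -0.21. Of 756 tested nuclear genes at or under the GC of the highest mitochondrial-encoded member, 20.9% were called higher and the median log2 fold change was 0.57. Only 74 tested nuclear genes lie at or under the median mitochondrial GC, with a median of 0.77 and 12.2% called higher. The mitochondrial-encoded median of 1.19 is to be read beside these medians of low-GC genes, which were above 0 as well.

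After a per-library correction of counts for GC, 3 mitochondrial-encoded genes were called higher and 0 lower, with 1.91% of all genes called, 1.09% higher and 0.824% lower (median log2 0.44). They were mt-Atp6 (log2 0.68, edgeR adjusted p = 0.0119), mt-Nd6 (0.72, adjusted p = 0.0235) and mt-Cytb (0.64, adjusted p = 0.0345). Without 1 library, the corrected call of mt-Atp6 was lost only without library 4, while mt-Nd6 was lost without 2, 3, 4, 9, 10 or 12 and mt-Cytb without 1, 2, 4, 10, 11 or 12. The other corrected values ran from -0.78 in mt-Nd3 to 0.57 in mt-Co2. Of the nuclear-encoded members, 4 passed after the correction, all lower. They were Atp5g3 (log2 -0.94, adjusted p = 0.0314), Cox7a2 (-0.97, adjusted p = 0.0304), Ndufa4 (-0.91, adjusted p = 0.035) and Cox7c (-0.91, adjusted p = 0.0342), the last picked with its values known. All 4 corrected calls were lost without library 2, 10, 11 or 12, and some also without 1, 4 or 9. Ndufa4 and Cox7c, both small complex IV subunits, had not passed before it (log2 -0.44, adjusted p = 0.121, and -0.54, adjusted p = 0.102). Calls of Cox6a1 (-0.51, adjusted p = 0.185), Ndufv1 (-0.44, adjusted p = 0.17), Uqcrb (0.02, adjusted p = 0.976) and Atp5f1 (0.03, adjusted p = 0.965) were lost. So were those of Atp5e (-0.71, adjusted p = 0.0883), Ndufa3 (-0.73, adjusted p = 0.159), Atp5o (-0.34, adjusted p = 0.199), Cox8a (-0.37, adjusted p = 0.336), Cox4i1 (-0.19, adjusted p = 0.384), Sdhb (-0.21, adjusted p = 0.399) and Atp5d (-0.31, adjusted p = 0.514). The nuclear-encoded median was -0.26 after the correction and -0.23 before it. In complex IV the median was -0.43 after it and -0.45 before it.

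**Figure D5:**
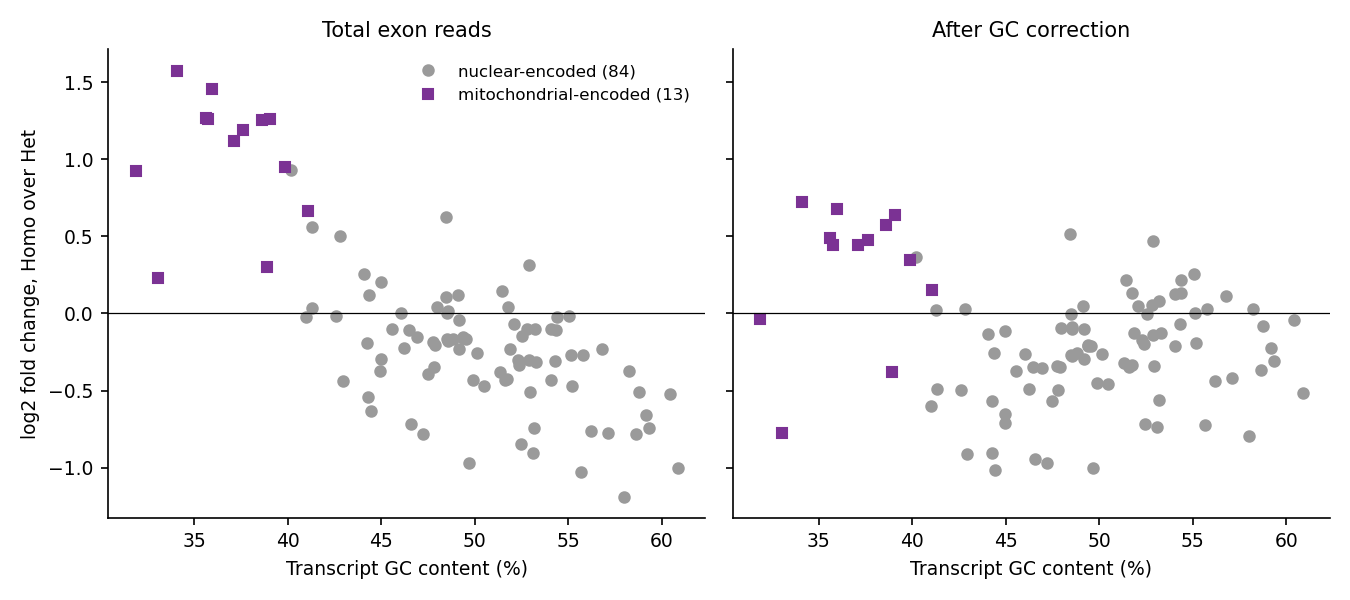
Log2 fold change of Homo over Het against transcript GC content in percent for the 97 members tested, before (left) and after (right) the GC correction, squares being mitochondrial-encoded and circles nuclear-encoded genes. Before it the squares lie at the low-GC end with a median of 1.19. After it their median is 0.44 and that of the circles is -0.26.

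Reads over whole genes, introns included, gave 0 calls among the mitochondrial-encoded genes in edgeR, where 8 had an unadjusted p under 0.05. Of the nuclear-encoded ones 1 was called lower, Ndufs7 of the complex I core (log2 -2.41, adjusted p = 0.0472, picked with its values known). From total exon reads Ndufs7 did not pass, before the GC correction (log2 -0.51, adjusted p = 0.177) or after it (-0.08, adjusted p = 0.901). Of all genes 0.0307% were called in whole-gene reads, 0% higher. Mitochondrial-encoded values there, after TMM scaling of whole-gene reads, were 1.10 in mt-Nd6 and 0.98 in mt-Atp6, and -0.26 in mt-Co3 and -0.21 in mt-Nd3 (log2). Without that scaling mt-Nd3 was not lower in Homo. It held 0.00558% to 0.00661% of gene reads in Homo and 0.00445% to 0.00529% in Het libraries. For mt-Co3 the shares overlapped, at 0.0435% to 0.0614% in Homo and 0.0379% to 0.0497% in Het libraries. The mitochondrial share of gene reads was 0.755%, 0.636%, 0.651% and 0.870% in Homo and 0.317%, 0.360%, 0.398% and 0.340% in Het libraries, without overlap.

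Genes that work with the complexes were tested in the same fit, in which 6.96% of all genes were called higher and 6.12% lower. Cyc1, cytochrome c1 of complex III, was called lower, with 30.5 ± 3.95 CPM in Homo and 52.0 ± 6.67 CPM in Het (log2 -0.77, edgeR adjusted p = 0.0135). Of 36 assembly factors tested, 2 were called higher (Cox16, log2 0.99, and Tmem126b, 0.81), 1 lower (Coa3, -1.11) and 33 did not pass. The call of Coa3 was lost without library 1, 2, 10 or 12 and that of Tmem126b without 1, 3, 4, 10 or 11. With unique exon reads Cox16 was under the low-count filter and not tested. Of 32 genes of mitochondrial DNA and RNA upkeep, 1 was called higher, Mterf3 (log2 1.03, adjusted p = 0.0132), and 0 lower. Tfam, which packages mitochondrial DNA and starts its transcription, stood at 45.1 ± 7.79 CPM in Homo and 35.2 ± 1.87 CPM in Het (adjusted p = 0.198), and Polrmt, the mitochondrial RNA polymerase, at 18.5 ± 5.33 CPM in Homo and 30.8 ± 3.46 CPM in Het (adjusted p = 0.0618). Tfam and Polrmt did not pass and were picked with their values known. Of 15 transcriptional regulators 1 was called higher, Creb1 (log2 0.66), and 0 lower. Of 10 carriers and porins 2 were called lower, the ADP/ATP carrier Slc25a5 (log2 -0.65, adjusted p = 0.0107) and the citrate carrier Slc25a1 (-0.87, lost without library 2), and 0 higher. Of 20 genes of the citric acid cycle and pyruvate entry, Dld was called higher (log2 0.88, lost without library 1 or 11) and the pyruvate carrier Mpc2 lower (-0.76, lost without 1, 2, 9, 10 or 11). Of 3 proteins associated with the ATP synthase 0 were called. After the GC correction, with 1.91% of all genes called, the calls of Slc25a5 (log2 -0.75) and Mpc2 (-1.16) were the ones kept, though not without library 2 or 11, and for Mpc2 also not without 1, 9 or 10.

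Promoters of nuclear-encoded members were searched for motifs of NRF1, of ETS factors such as GABPA, and of YY1, which are known regulators of respiratory genes. RefSeq GRCm38.p6 gave a promoter (250 bases before to 50 after the start) for 78 of the 94. On either strand the NRF1 core CGCANGCG was found in 30 of them (38.5%, against 9.22% of all 27025 genes with a promoter), the ETS motif CCGGAAG in 18 (23.1%, against 9.93%) and the YY1 motif AAGATGGC in 12 (15.4%, against 3.19%). The 27025 were not limited to genes with reads in these cells, and a comparison with expressed genes alone was not made. Of the 10 members called lower with a promoter, 4 held the NRF1 core, 4 the ETS motif and 1 the YY1 motif. Shown are the promoter of Cox6a1, the nuclear-encoded member with the smallest p among those lower in Homo (chr5:115348909-115349208, minus strand), and that of Atp5f1, the one called higher with a promoter in the table (chr3:105959214-105959513, minus strand), with matches in capitals. As printed, Cox6a1 holds 2 NRF1 matches and 1 ETS match, and Atp5f1 holds 1 YY1 match.
Cox6a1: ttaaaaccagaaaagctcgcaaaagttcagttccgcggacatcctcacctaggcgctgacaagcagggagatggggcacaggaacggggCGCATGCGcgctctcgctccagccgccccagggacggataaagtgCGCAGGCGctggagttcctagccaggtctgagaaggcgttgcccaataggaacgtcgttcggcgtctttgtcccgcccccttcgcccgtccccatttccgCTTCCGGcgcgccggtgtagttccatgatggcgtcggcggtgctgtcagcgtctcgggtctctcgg
Atp5f1: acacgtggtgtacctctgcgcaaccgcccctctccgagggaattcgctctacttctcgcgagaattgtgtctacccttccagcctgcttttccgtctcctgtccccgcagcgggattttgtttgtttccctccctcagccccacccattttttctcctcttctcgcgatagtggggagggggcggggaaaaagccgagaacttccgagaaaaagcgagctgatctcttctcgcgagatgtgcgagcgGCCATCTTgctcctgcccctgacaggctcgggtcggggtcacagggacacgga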

How the data were processed

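RNA was made into libraries from 10 ng of total RNA with a stranded total-RNA kit and read as 36 bases from each end, per the labels' protocols. The deposited tables give whole-number counts of total and unique reads over exons and genes, with RPKM and TPM made by the authors, per the file headers; RPKM was built from total exon reads. Builds are GRCm38 and mm10, per the submitters' processing notes; the aligner is not given in the sources used here. Homo was tested against Het (4 libraries each) on total exon reads in edgeR 4.0.16 under R 4.3.3 with filterByExpr, TMM scaling and the quasi-likelihood test, Benjamini-Hochberg adjusted over 12257 genes, 0.05 as threshold. The SE of a log2 fold change was its size over the square root of F. CPM uses TMM-scaled totals, and SD is over 4 libraries. The GC correction took offsets from a lowess fit (span 0.3) on the GC content of GENCODE M21 transcripts. The value fitted was log2 level less the gene's mean over the libraries. Alternatives were unique exon and whole-gene reads, another normalization, other filters, DESeq2 1.42.0, a length correction and leaving out each library; GC correction with a library left out was added after seeing the data. A 0 was given a limit of 3 reads, which covers counting error only. Members and lists were chosen with earlier results of these data known. Named were all mitochondrial-encoded members, nuclear-encoded ones called, the highest per length in each complex, tissue isoforms, and up to 4 called genes of each other list. The fit was tested on simulated data.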

Additional observations from a re-analysis of the deposited data

Results flagged for a closer look

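In groups of 4 libraries, 14 of 120 groups examined had 1 library far from the other 3 by Dixon's criterion, where chance alone flags about 1 in 20. Homo library 12 was the high one for mt-Nd2 (1358 CPM, against 957 to 991 CPM in the other 3 Homo libraries), mt-Co1 (8435 CPM, others 5840 to 6282), mt-Atp6 (4531 CPM, others 3212 to 3331) and mt-Co3 (2037 CPM, others 1391 to 1486). Het library 3 was the high one for mt-Nd4l (198 CPM, others 120 to 129). Homo library 9 was the high one for Slc25a1 (61.7 CPM, others 37.0 to 38.8) and had the low intron share of 59.6% (others 67.7% to 69.2%). Het library 4 had 4.06% of its gene reads in mitochondrial rRNA, others 2.60% to 2.85%.

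The remaining flags rest on a few reads in genes under the low-count filter. Cox4i2 was at 0.785 CPM in Homo library 12 and 2.70 CPM in Het library 3, Cox7a1 at 0.785 CPM in Homo library 12 and 0.334 CPM in Het library 2, Cox6a2 at 0.393 CPM in Homo library 12 and Cox8c at 0.404 CPM in Homo library 10. The mitochondrial-encoded calls were 9 without library 12, as without library 1, 2 or 10.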

How the results depend on the processing

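With total exon reads 24 members were called, 11 mitochondrial-encoded and 13 nuclear-encoded, among 1603 genes. Whole-gene reads gave 1, 0, 1 and 6, and the GC correction 7, 3, 4 and 234. The length correction gave 8 nuclear-encoded calls (3 higher, 5 lower) and all 13 mitochondrial-encoded genes higher, mt-Co3 (log2 0.51, edgeR adjusted p = 0.034) and mt-Nd3 (0.48, adjusted p = 0.0451) included. The share of all genes called with the length correction is not given here, so these counts cannot be set against it. Leaving out 1 library gave 12 to 26 members, 9 to 11 mitochondrial-encoded, 2 to 15 nuclear-encoded and 734 to 2077 genes. With the GC correction, added after seeing the data, it gave 1 to 11, 0 to 3, 0 to 8 and 71 to 395, the last being 142, 71, 395 and 157 genes without Het libraries 1, 2, 3 and 4 and 164, 94, 93 and 105 without Homo libraries 9, 10, 11 and 12. Without the GC correction, nuclear-encoded calls were 6, 3, 15 and 8 without Het libraries 1, 2, 3 and 4, and 12, 4, 2 and 4 without Homo libraries 9, 10, 11 and 12. Calls over all genes also moved between these fits, from 734 to 2077. Whether the members moved more than all genes was not tested. The difference in mitochondrial-encoded share, 1.06 points, was 0.672 with unique exon reads and 0.374 with gene reads, where the share itself is smaller (Homo over Het 1.996, 2.12 and 2.06), and 0.848 to 1.16 without 1 library. The nuclear-encoded difference of -0.113 points was -0.0211 with gene reads and -0.131 to -0.0844 without 1 library, and the log2 ratio of 1.26 was 1.11 to 1.41. After the GC correction mt-Co3 and mt-Nd3, not called before it, were -0.38 and -0.78. Direction turned for mt-Atp8 (-0.0366), also without Het libraries 1 (-0.0598), 2 (-0.00122), 3 (-0.22) and 4 (-0.0624) and Homo libraries 11 (-0.12) and 12 (-0.14). Without Het library 3 and with the correction, mt-Nd3 was -0.998. Uqcrb was then -0.15 without Het library 3, -0.0428 without Het 4 and -0.14 without Homo 9, and Atp5f1 -0.14, -0.0371 and -0.13. The cause was not tested. No paired analysis was possible because no Homo and Het library share a replicate number.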
